A study of Mus musculus with 8 samples.

Results

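ERV1 elements are class I endogenous retroviruses, relatives of the gammaretroviruses such as murine leukaemia virus. A complete copy, or provirus, has an internal sequence that encodes the gag, pol and env genes, with a long terminal repeat (LTR) at each end that carries the promoter and the polyadenylation signal. Recombination between both LTRs leaves a solitary LTR, and most copies in the mouse genome are such remnants. In embryonic stem cells the active members are held down by the KRAB zinc finger, KAP1 (Trim28) and SETDB1 pathway and by DNA methylation. The RNA of some retroviruses carries N6-methyladenosine (m6A), the mark written by the METTL3 and METTL14 complex and read by YTH domain proteins.

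The members described here were the rows of the authors' deposited table annotated as family ERV1 of class LTR whose mean normalised read count (mean count) was at least 10. Of 133 ERV1 subfamilies among 1097 transposable element subfamilies and 18694 features in all, 89 met this rule. Of these, 18 were internal sequences, with names ending in -int, and 71 were LTRs. Just inside the limit lay LTR28B (mean count 10.3) and MER67A (10.6), and just outside it LTR31 (9.57) and MER57E1 (9.0). The 44 subfamilies under the limit had a median standard error of 1.08 on the log2 scale, none of them was past the threshold, and none had an unadjusted p under 0.05. A subfamily is the sum of the reads over all its copies, so it has no single position in the genome, and its reads can come from its own transcripts or from copies that lie inside other transcripts, which cannot be told apart here.

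The RNA came from mouse embryonic stem cells of a Cast x 129S cross in which METTL3 is fused at its C terminus to FKBP12F36V, a tag through which the small molecule dTAG-13 brings about destruction of the protein. The 8 libraries formed 2 groups of 4, cells given dTAG-13 for 26 h and untreated cells, each with 2 replicates of clone C3 and 2 of clone H5. Every library also carried a doxycycline-driven promoter at 1 Xist allele, without doxycycline, and all cells were grown on inactivated fibroblast feeders. The question the design addresses is which RNAs change soon after METTL3 is lost.

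The table gives 1 mean count over the 8 libraries, 1 log2 fold change and its standard error for each feature, so neither values per library nor the 2 clones could be compared. Group levels given below as approximate were computed from the mean count and the fold change for groups of equal size, and intervals are 95% intervals from the standard error. The threshold was an adjusted p under 0.05 (Wald test of DESeq2 run by the authors, Benjamini-Hochberg over all features), and "lower" or "fell" refers to features past it. Which group is the numerator is not stated in the table. Positive values were taken to mean more RNA with dTAG-13, and every direction below would turn under the opposite reading. Mean counts are not divided by length, so they rank how many reads a subfamily holds and not how strongly it is transcribed.

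All 10 stem cell markers were in the table, with mean counts from 1019 to 11934. None of them rose and 2 fell, Dppa5a (-0.40) and Tdgf1 (-0.35), and the median of the 10 was -0.10 on the log2 scale. The 18 fibroblast markers had mean counts from 0.421 to 361. Of the fibroblast markers, 3 were higher with dTAG-13 (Col5a1, Loxl1 and Twist1) and none was lower (median log2 fold change 0.24), and the part of either list in the retroviral values was not tested. Among all features, 9.09% were lower and 10.1% higher. Of the 807 subfamilies outside ERV1 that reached a mean count of 10, 5.08% were lower and 0.372% higher. Their median log2 fold change was -0.36, while that of genes with mean counts of 100 or more was -0.050.

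With dTAG-13, 13 of the 89 ERV1 subfamilies fell (14.6%) and none rose. Among all features with mean counts of at least 10, 11.7% fell and 12.7% rose. The 13 were 6 internal sequences (RLTR1B-int, MMERGLN-int, MuRRS4-int, RLTR4_MM-int, MERV1_I-int and MURVY-int) and 7 LTRs (LTRIS2, MMERGLN_LTR, RLTR30D_RN, RLTR4_Mm, RLTR41, LTRIS3 and RLTR41C). At an unadjusted p under 0.05, 23 passed, all with negative values. The median over the 89 was -0.31 (quartiles -0.51 and -0.12), the range was -1.37 to 0.37, and 74 lay below 0. Re-centred on the other subfamilies, which moves every value up by 0.36, the split was 5 lower and 1 higher, the median turned to 0.054 and 37 lay below 0. The 8 members that lost their call there had adjusted p-values from 0.0530 to 0.934. Outside ERV1, 92.7% of subfamilies lay below 0. In bulk RNA, fewer cells with a transcript and less of it per cell cannot be told apart.

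**Figure D1:**
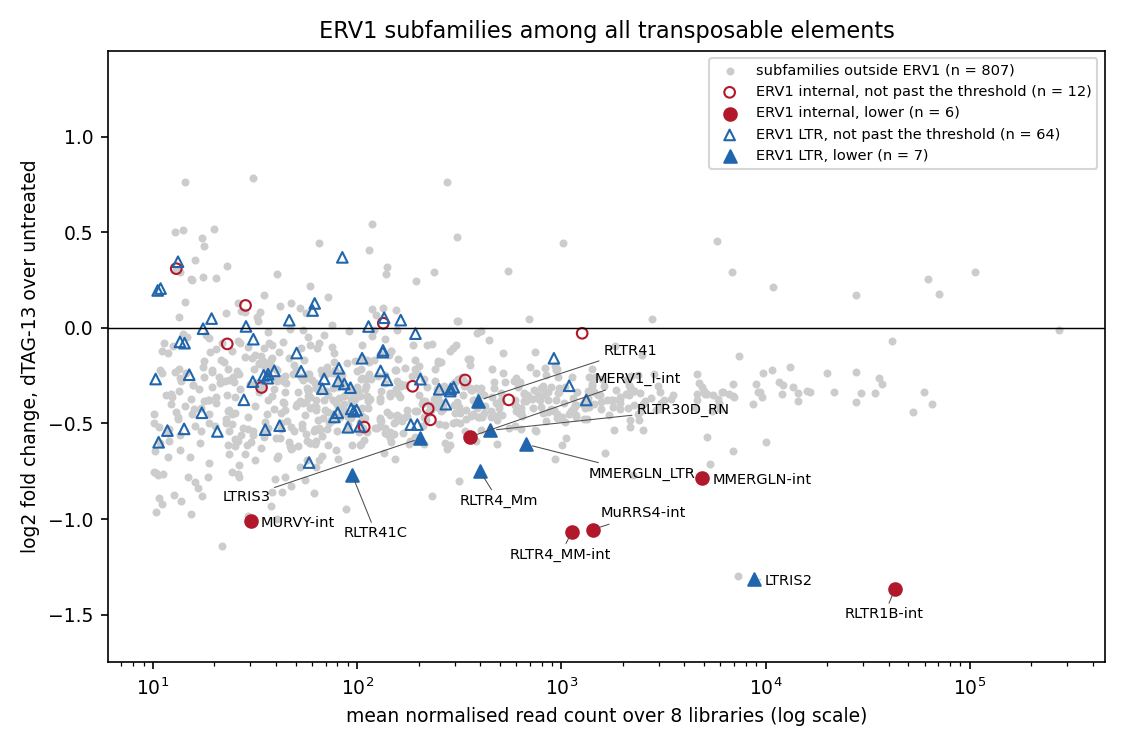
Log2 fold change with dTAG-13 over untreated cells against the mean normalised read count (log scale) for 89 ERV1 subfamilies and 807 other transposable element subfamilies, with internal sequences as circles, LTRs as triangles and members past the threshold filled. Most points lie below 0 as deposited, and the ERV1 members with over 1000 reads reach -1.37 while most grey points there stay near -0.35.

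Among the 89 ERV1 members, the 4 lowest log2 fold changes belonged to members with mean counts over 1000. Of 8 with mean counts of 1000 or more, 5 fell, 4 of them by at least 2-fold, and their median log2 fold change was -0.92. Outside ERV1, 151 subfamilies had such a mean count, 18 fell, 1 fell by at least 2-fold, and the median was -0.35. Between 100 and 1000, 6 of 32 ERV1 members fell with a median of -0.32, none of them by 2-fold. Between 10 and 100, 2 of 49 fell with a median of -0.27, and 1 of them, MURVY-int, fell by at least 2-fold. Across the 89 members Spearman's rho between mean count and log2 fold change was -0.37, and without RLTR1B-int and LTRIS2 it was -0.33 over 87. It was 0.029 across the 807 other subfamilies. The points share their libraries, and a low count also widens the error: the median standard error was 0.31 for members with a mean count under 100 and 0.19 for the rest. At these errors a 2-fold change would have passed the threshold in 77 of the 89 members.

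RLTR1B-int, the internal sequence of a mouse ERV1 group, held the most reads. Its mean count was 42939, or 58.4% of all ERV1 reads and 2.50% of all transposable element reads. The approximate level was 61884 normalised reads in untreated cells and 23995 with dTAG-13, which is 38.8% of the untreated level (interval 33.7 to 44.6%). The log2 fold change was -1.37 (standard error 0.10, adjusted p = 2.32e-36). It was the lowest value of any of the 89 members.

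LTRIS2 was next in reads and in size of change. LTRIS names LTRs of the murine retrovirus-related sequences, MuRRS. Its mean count was 8755, with approximate levels of 12487 and 5022, and 40.2% was left with dTAG-13 (interval 33.3 to 48.6%, log2 fold change -1.31, adjusted p = 4.98e-18). MuRRS4-int, an internal sequence of that group with a mean count of 1421, was at 48.1% of the untreated level (interval 40.3 to 57.4%, adjusted p = 2.40e-13). Other names of the group had values on both sides of 0. MuRRS-int (mean count 134) had a log2 fold change of 0.025 (interval -0.32 to 0.37). Of 7 LTRIS subfamilies 2 fell, LTRIS2 and LTRIS3, which had a mean count of 204 and was at 67.0% (adjusted p = 0.0127). On re-centring to the other subfamilies LTRIS3 did not pass (adjusted p = 0.395). LTRIS_Mus was at -0.32 (adjusted p = 0.162), LTRIS5 at -0.54 (0.401), LTRIS4 at 0.0078 and LTRIS4A at 0.053 on the log2 scale. LTRIS_Mm had the highest value of all members, 0.37 (interval -0.033 to 0.77, adjusted p = 0.220), and was the 1 member that became higher on re-centring to the other subfamilies (0.73, adjusted p = 0.00196).

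Of 3 subfamilies of murine leukaemia virus type, 2 fell. RLTR4_MM-int, an internal sequence, had a mean count of 1128 and was at 47.8% of the untreated level (interval 33.6 to 67.9%, adjusted p = 0.000614). Its LTR, RLTR4_Mm, had a mean count of 400.0 and was at 59.4% (interval 47.6 to 74.2%, adjusted p = 0.000102). MuLV-int, a further internal sequence of this virus, held 228 reads on average, and its log2 fold change of -0.48 (interval -0.89 to -0.073, adjusted p = 0.0901) did not pass. All 3 log2 fold changes were below 0 with intervals that overlapped.

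MMERGLN is the GLN family, named for the glutamine transfer RNA that primes its reverse transcription. MMERGLN-int had a mean count of 4873, approximate levels of 6169 and 3578, and 58.0% left with dTAG-13 (interval 45.3 to 74.2%, adjusted p = 0.000275). Its LTR, MMERGLN_LTR, had a mean count of 674 and was at 65.6% (interval 55.7 to 77.1%, adjusted p = 1.25e-05). Internal sequence and LTR thus both fell, and their intervals overlapped. On re-centring to the other subfamilies neither passed (adjusted p = 0.0530 and 0.0936).

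MURVY-int belongs to a retrovirus-like sequence amplified on the mouse Y chromosome. It had a mean count of 30.1, the fewest reads of the 13, and was at 49.6% of the untreated level (interval 32.6 to 75.6%, adjusted p = 0.00923). On re-centring to the other subfamilies MURVY-int did not pass (adjusted p = 0.0900). MURVY-LTR (mean count 80.4) lay at -0.44 on the log2 scale (adjusted p = 0.200). The study describes these stem cells as XX, and which genomic copies or cells gave the MURVY reads was not tested. Of the 18 fibroblast markers, 12 had mean counts of at least 10. Among the 18, 3 were higher, beside 10.1% of all features, and none was lower. Col1a1 (mean count 19.8) and Col1a2 (13.8) did not pass, and such low counts limit what the markers can show.

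The remaining 4 members past the threshold were at 58.7 to 76.8% of the untreated level. RLTR41C had a mean count of 94.5 and was at 58.7% (adjusted p = 0.00429), and RLTR30D_RN (449) was at 69.0% (adjusted p = 8.03e-06). MERV1_I-int (356) was at 67.4% (adjusted p = 0.0402) and RLTR41 (391) at 76.8% (adjusted p = 0.0335). The last pair no longer passed after re-centring on genes, a shift of 0.050 (adjusted p = 0.0693 for MERV1_I-int and 0.0760 for RLTR41). On re-centring to the other subfamilies none of the 4 passed (adjusted p from 0.138 for RLTR41C to 0.934 for RLTR41). As deposited, the median log2 fold change was -0.27 over the 6 subfamilies with RLTR30 names and -0.45 over the 4 with RLTR41 names. RLTR41 at -0.38 lay close to the median of the other subfamilies.

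**Figure D2:**
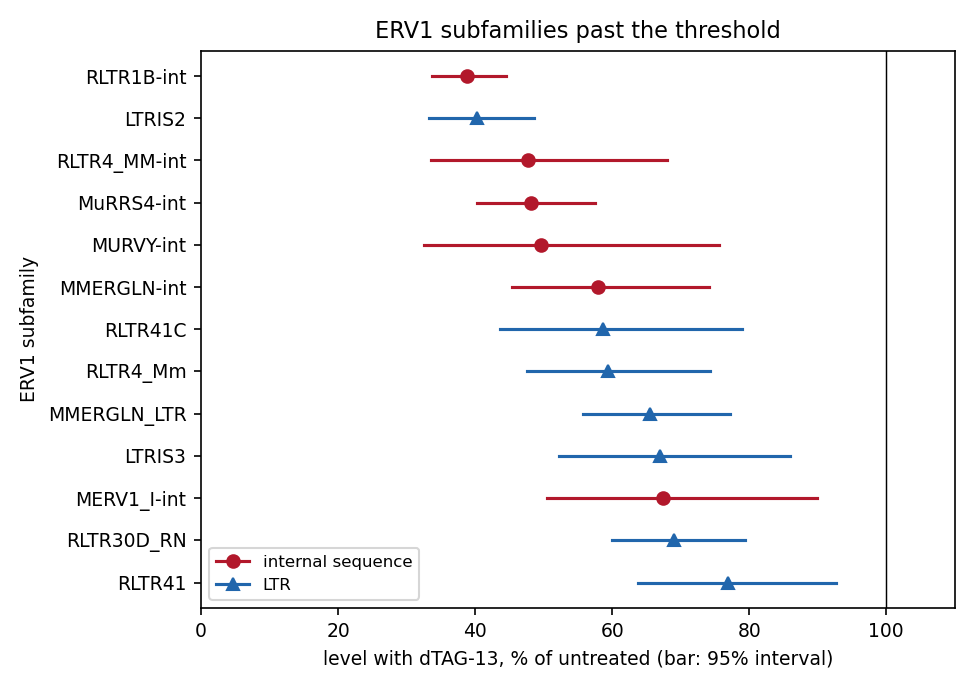
Level with dTAG-13 as a percentage of the untreated level for the 13 ERV1 subfamilies past the threshold, ordered by size of change, with points for the deposited fold change and bars for its 95% interval. RLTR1B-int is lowest at 38.8% and RLTR41 highest at 76.8%, every bar ends left of 100%, and bars of most neighbours overlap.

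Of the 10 members with the most reads, 4 did not pass. RMER5 (mean count 1324) had a log2 fold change of -0.38 (interval -0.77 to 0.012), MLTR14 (1091) one of -0.30 (interval -0.62 to 0.011) and RLTR1B (919) one of -0.16 (interval -0.40 to 0.080). RLTR14-int, with a mean count of 1264, lay at -0.028 (interval -0.34 to 0.28), and its LTRs RLTR14 (193) and RLTR14_RN (204) at -0.030 and -0.27. The VL30 elements, short retroviral sequences that are packaged by murine leukaemia virus, did not pass either. Their internal sequences RLTR6-int (552) and MMVL30-int (187) lay at -0.38 (adjusted p = 0.109) and -0.31 (adjusted p = 0.295), and their LTRs RLTR6_Mm (163) and RLTR6B_Mm (114) at 0.041 and 0.0074.

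Split by the name of the element, the 57 subfamilies with rodent names held all 13 that fell, with a median log2 fold change of -0.33 and a summed mean count of 71897. The other 32, most of them MER and LTR names of older elements shared with other mammals, held none that fell and 3 at an unadjusted p under 0.05. Their median was -0.27. The standard error had a median of 0.33 for them and of 0.21 for the rodent names, and their summed mean count was 1589. Reads were counted only where they could be placed uniquely, which undercounts young subfamilies with near-identical copies.

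The share that fell was larger for internal sequences than for LTRs, and internal sequences also held more reads. Of 18 internal sequences 6 fell (33.3%), and of 71 LTRs 7 (9.86%). Among all features with mean counts of at least 10 the share was 11.7%, so that of the LTRs was no larger. The medians were -0.40 for internal sequences and -0.28 for LTRs as deposited, and -0.040 and 0.078 after re-centring on the other subfamilies. Both parts had the same share below 0, 83.3% and 83.1%. The internal sequences had a median mean count of 226 and the LTRs one of 81.4. Where the mean count was 100 or more, 5 of 13 internal sequences and 6 of 27 LTRs fell, with medians of -0.48 and -0.32. Across the 18 internal sequences Spearman's rho between mean count and log2 fold change was -0.61, and across the 71 LTRs it was -0.27.

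The same order of shares was seen in the related families, again beside 11.7% of all features with mean counts of at least 10. In ERVK, 8 of 43 internal sequences (18.6%) and 13 of 212 LTRs (6.13%) fell, while 2 and 1 rose, with medians of -0.19 and -0.27. In ERVL 3 of 11 internal sequences and 0 of 65 LTRs fell, with medians of -0.45 and -0.36. For the 65 ERVL LTRs, 5 had an unadjusted p under 0.05. In ERVL-MaLR 7 of 36 internal sequences and 3 of 52 LTRs fell, with medians of -0.47 and -0.37. The ERV1 internal sequences held the lowest value of these groups, and 4 of 18 were down by at least 2-fold. None of these differences was tested, since subfamilies are not replicates.

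**Figure D3:**
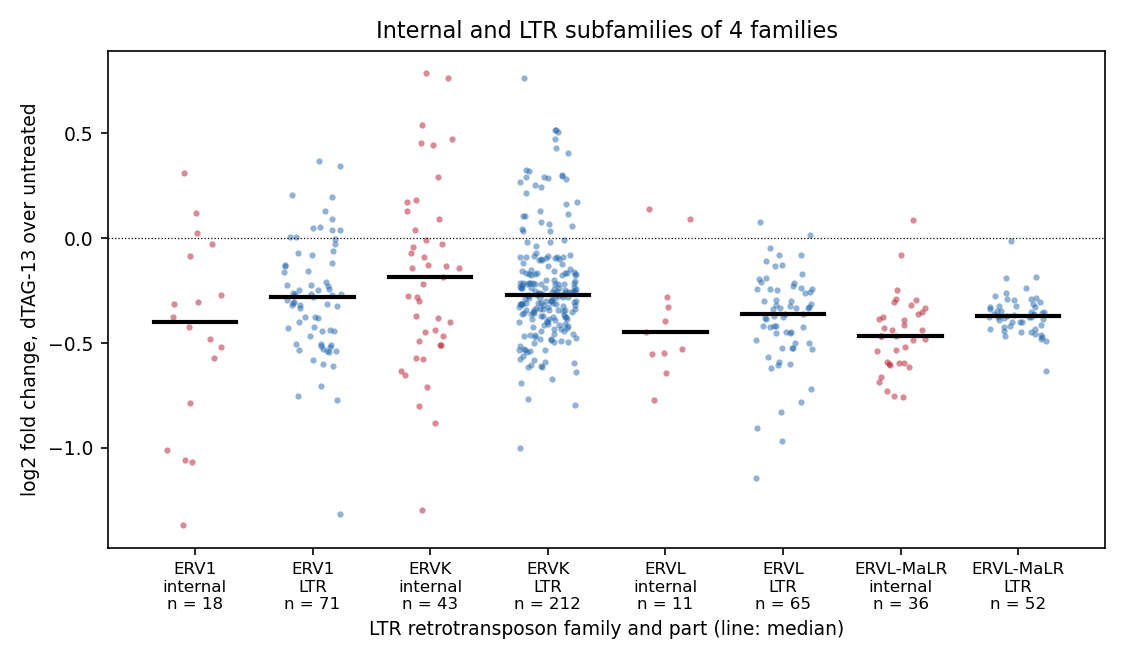
Log2 fold change with dTAG-13 over untreated cells for each internal (red) and LTR (blue) subfamily of the ERV1, ERVK, ERVL and ERVL-MaLR families with mean counts of 10 or more, and the median as a bar. As deposited all medians lie between -0.47 and -0.19, and the ERV1 internal group spreads from -1.37 to 0.31.

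Pairs of an internal sequence and an LTR were matched by name, except that MMVL30-int was set beside the LTRs named RLTR6. This gave 19 pairs with both mean counts at least 10, from 11 internal sequences. MuRRS4-int (log2 fold change -1.05) and the LTRIS subfamilies, among them LTRIS2 (-1.31), have unlike names and formed no pair. The internal sequence had the lower log2 fold change in 11 pairs, and the median difference was -0.095. Only for RLTR1B-int and RLTR1B did the interval of the difference exclude 0, at -1.21 (interval -1.52 to -0.90), where the internal sequence had 46.7 times the mean count of the LTR. Other LTRs with RLTR1 names formed no pair. RLTR1C lay at -0.51 (adjusted p = 0.0621), RLTR1A2_MM at -0.40, RLTR1D at 0.091 and RLTR1D2_MM at 0.13. Both partners were past the threshold in 2 pairs, where the difference was -0.18 for MMERGLN (interval -0.60 to 0.25) and -0.31 for RLTR4 (interval -0.91 to 0.29). For MURVY-int and MURVY-LTR it was -0.57 (interval -1.33 to 0.20). RLTR6-int lay -0.42 from RLTR6_Mm (interval -0.92 to 0.087) and -0.38 from RLTR6B_Mm, and MMVL30-int lay -0.35 and -0.31 from the same LTRs.

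The older names gave no pair with an interval clear of 0. MER31-int (log2 fold change -0.52, adjusted p = 0.0741) lay below MER31A (-0.13) and MER31B (-0.42). MER34-int (-0.31) lay between MER34A1 (-0.29) and MER34 (-0.47), and MER34A was at -0.51. MER92-int (-0.084) and LTR37-int (0.12) had few reads, with mean counts of 23.1 and 28.4, and lay above their LTRs MER92A (-0.60), MER92B (-0.24), LTR37A (-0.25) and LTR37B (-0.54). The intervals take both errors as independent, although reads of 1 provirus feed both partners and 1 internal sequence enters several pairs.

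**Figure D4:**
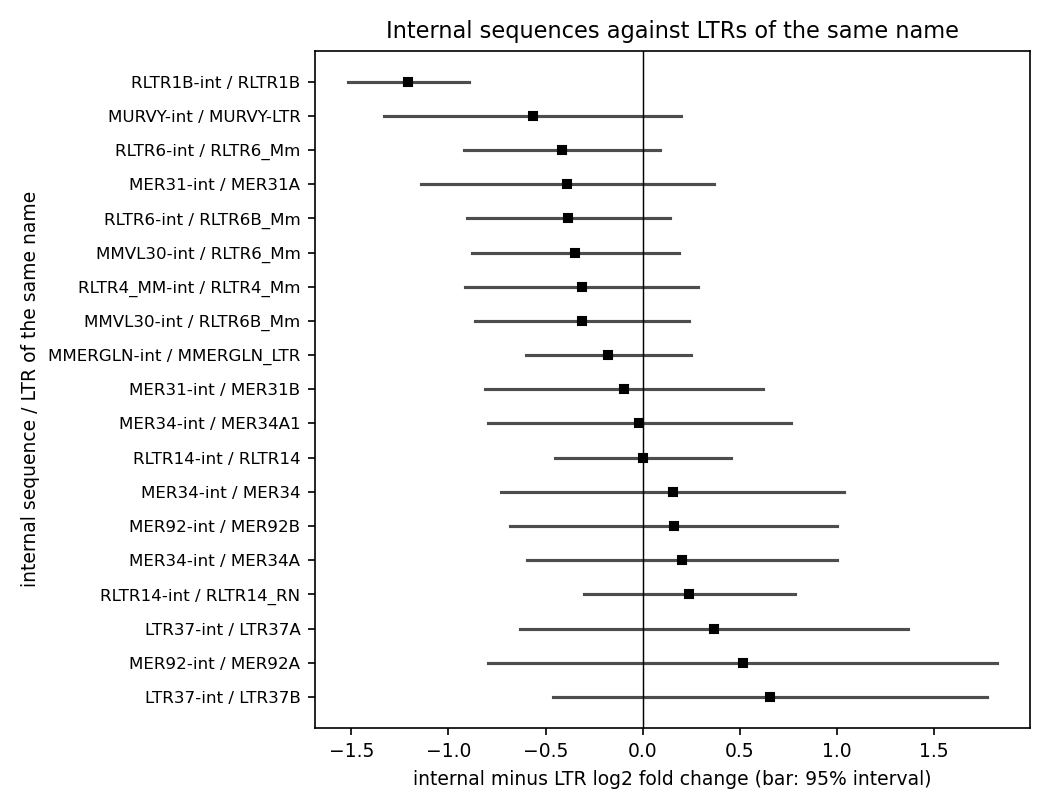
Difference in log2 fold change, internal sequence minus LTR, for 19 pairs with both mean counts at least 10, with bars for the 95% interval. Pairs were matched by name, except that MMVL30-int was set beside the LTRs named RLTR6. The pair RLTR1B-int and RLTR1B lies at -1.21 with its bar left of 0, and the bars of the other pairs cross 0.

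Summed over the 89 members, ERV1 held 4.27% of transposable element reads and 0.451% of all reads. The approximate sum was 99919 normalised reads in untreated cells and 47054 with dTAG-13, or 47.1% of the untreated sum. RLTR1B-int made up 71.7% of the drop and the 13 members past the threshold 96.0%. The 13 were picked for their falls, so their large share of the drop follows in part from that choice. The same holds for the smaller drop of the other members. Without RLTR1B-int the sum with dTAG-13 was 60.6% of the untreated sum, and over the 76 members that did not pass it was 83.7%. The internal sequences, with 73.3% of the ERV1 reads, were at 43.1%, and at 62.8% without RLTR1B-int. The LTRs were at 59.4%, and at 79.2% without LTRIS2. No such sum was computed for subfamilies outside ERV1, whose median log2 fold change was -0.36.

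Genes that act on retroviruses, together with m6A writers and readers, were taken from a list of 60, of which 59 were matched in the table. Of these, 10 rose and 17 fell, with a median log2 fold change of -0.16. The 11 m6A writers and readers gave 5 of the 10 that rose and none of the 17 that fell. Of the genes with mean counts of 100 or more, 15.0% fell and 13.3% rose, and the median was -0.050. Re-centred on the transposable element subfamilies outside ERV1 the split was 23 higher and 0 lower. Re-centred on genes it was 11 higher and 13 lower. None of the falls given next passed relative to the repeats.

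In the KAP1 and SETDB1 silencing group all 12 genes lay below 0 and 5 fell, or 4 after re-centring on genes. For comparison, 56.1% of genes with mean counts of 100 or more lay below 0, and 15.0% fell. Trim28, the corepressor KAP1 that zinc finger proteins recruit to proviruses (mm10, chr7:13024152-13031032), had a mean count of 18853 and fell by 0.31 on the log2 scale (log2 fold change -0.31, adjusted p = 0.000672). The heterochromatin protein Cbx3 was at -0.43, Morc3 at -0.30, Sumo2 at -0.35 and Resf1, a partner of SETDB1, at -0.28 (adjusted p = 0.0455), and all 4 passed. Setdb1, the histone H3 lysine 9 methyltransferase, was at -0.056 (interval -0.24 to 0.13). Zfp809, which binds the primer binding site of murine leukaemia virus, held 658 reads on average with a log2 fold change of -0.28 (adjusted p = 0.115), and Yy1, which binds its LTR, one of -0.18 (adjusted p = 0.408). Of the HUSH complex, which silences young retroelements, Fam208a (-0.55) and Mphosph8 (-0.42) fell and the other 2 genes did not pass.

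Of 6 DNA methylation genes 3 fell, while of genes with mean counts of 100 or more 15.0% fell and 13.3% rose. Hells, a chromatin remodeller needed for methylation of repeats (chr19:38930262-38970470), fell with a log2 fold change of -0.57 (adjusted p = 2.43e-06), as did the methyltransferase Dnmt1 (-0.28) and the cofactor Dnmt3l (-0.45). Dnmt3a (-0.018), Dnmt3b (-0.18) and Uhrf1 (-0.21) did not pass. Among 11 further chromatin repressors, the H3 lysine 9 methyltransferase Ehmt2 (0.49) and the H3.3 chaperone Daxx (0.50) rose, while its partner Atrx (-0.37) and the deacetylase Hdac1 (-0.43) fell.

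Of 7 restriction factors 1 rose and 2 fell, beside 13.3% and 15.0% of genes with mean counts of 100 or more. Trex1, an exonuclease that degrades cytosolic DNA such as reverse transcripts (chr9:109057932-109059723), held 282 reads on average and rose by 1.35 on the log2 scale (interval 0.95 to 1.75, adjusted p = 5.74e-09). Fv1, a capsid-binding factor derived from a retroviral gag gene (chr4:147868979-147870358), held 59.1 reads on average, with a log2 fold change of -0.85 (interval -1.27 to -0.42, adjusted p = 0.00131). Samhd1, which lowers the nucleotide pool that reverse transcription uses, was at -0.51 (adjusted p = 0.0321). Of 4 receptors through which gammaretroviruses enter cells, Slc20a2 rose (0.30) and Slc20a1 fell (-0.36). The receptors Xpr1 (0.093, adjusted p = 0.738) and Slc7a1 (-0.087, standard error 0.47) did not pass.

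Of 4 genes for nuclear export of retroviral RNA, Nxt1 rose and 2 fell, beside 13.3% and 15.0% of genes with mean counts of 100 or more. Nxt1, the cofactor of the export receptor Nxf1 (chr2:148672615-148676026), held 1155 reads on average and rose by 1.25 on the log2 scale (interval 1.01 to 1.49, adjusted p = 1.00e-21). Nxf1 itself was at -0.26 (adjusted p = 0.0307) and the exportin Xpo1 at -0.31 (adjusted p = 0.0329), and neither passed after re-centring on genes, as was so for Resf1 and Samhd1. Among 11 m6A writers and readers 5 rose and none fell, with Ythdc2 closest at -0.31 (unadjusted p = 0.0203, adjusted p = 0.0885). The readers Ythdc1 (1.04), Ythdf2 (0.82) and Ythdf1 (0.32) rose, as did the writer complex subunits Rbm15 (0.38) and Virma (0.32). Mettl3 held 684 reads on average, with a log2 fold change of -0.092 (interval -0.71 to 0.52, adjusted p = 0.886). Since dTAG-13 acts on the protein, the Mettl3 transcript does not check the depletion.

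**Figure D5:**
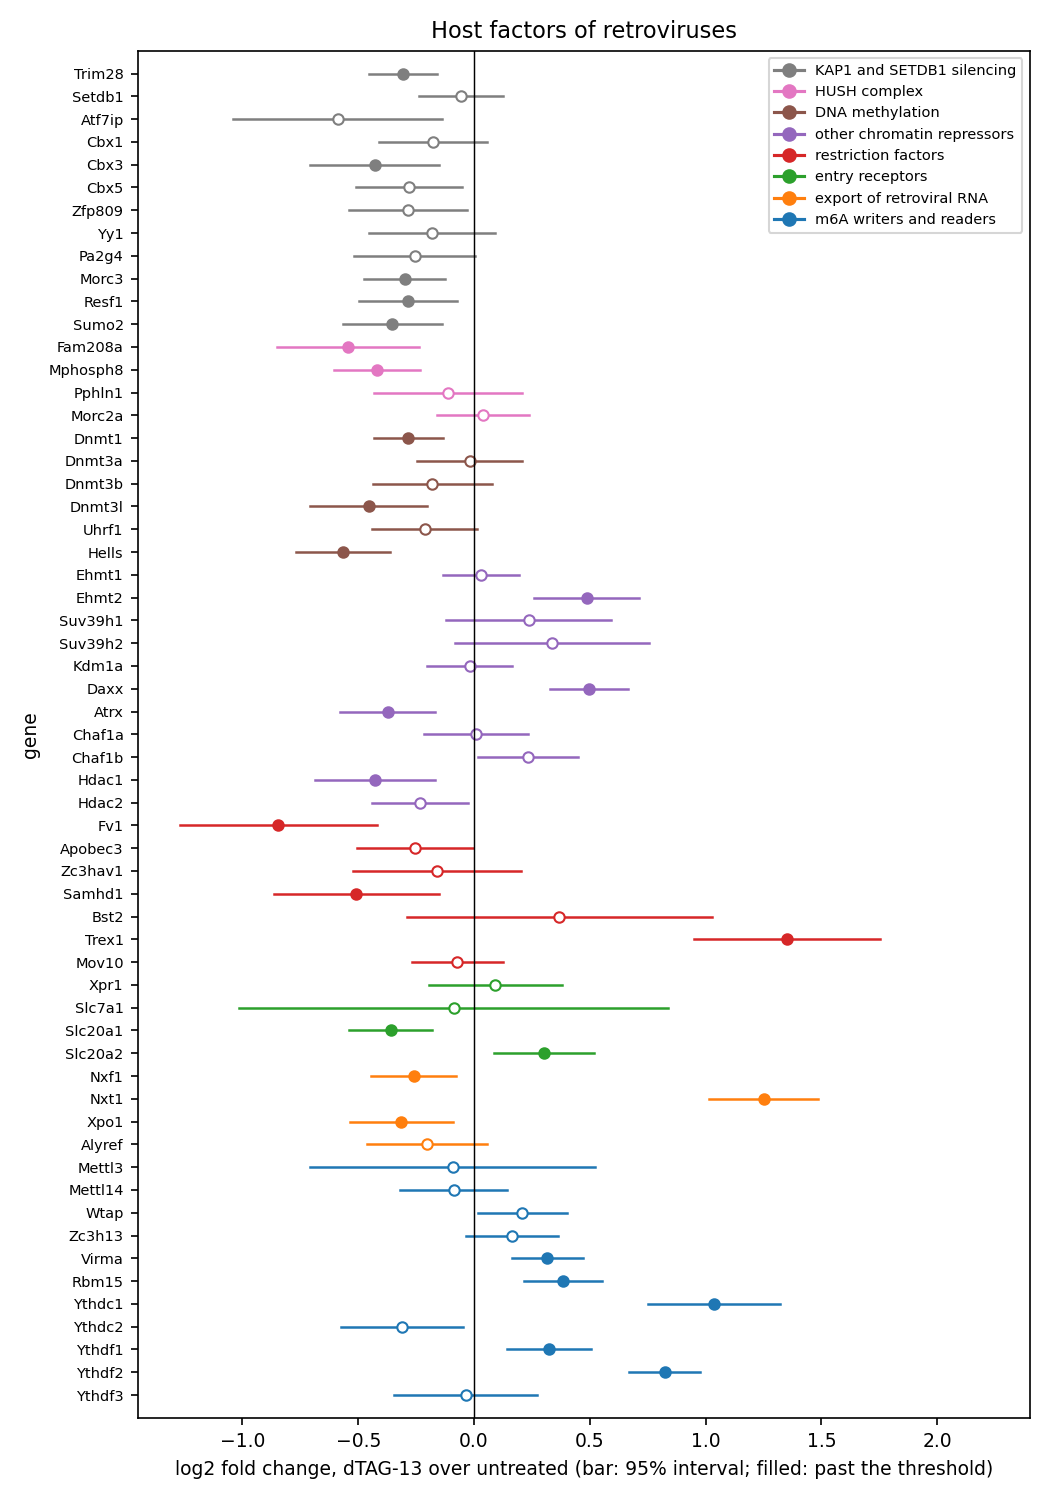
Log2 fold change with dTAG-13 over untreated cells for 59 host genes, 11 of them m6A writers and readers, coloured by role. Bars give the 95% interval and filled points are past the threshold. As deposited, all 12 genes of KAP1 and SETDB1 silencing lie below 0, beside 56.1% of genes with mean counts of 100 or more. The genes furthest to the right are Trex1 (1.35), Nxt1 (1.25) and Ythdc1 (1.04).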

How the data were processed

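Total RNA of 8 libraries (2 groups of 4) was sequenced by the authors after ribosomal RNA depletion with a stranded kit. The extraction text in the labels describes chromatin RNA, while the labelled molecule and the study's methods give total RNA. Ribosomal reads were removed with bowtie2, the rest was aligned with STAR to an mm10 genome masked at strain variants, only unique alignments were kept, and duplicates were removed with Picard. The authors counted and compared genes and subfamilies with TEtranscripts under default parameters, which runs DESeq2. The use of strand in counting is uncertain, and so are genes that overlap others on the opposite strand.

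The deposited signal is the mean over libraries of counts divided by size factors. The deposited log2 values are the fold change and its standard error, the score deposited with them is their Wald statistic. The p-values were deposited raw and adjusted. The adjusted values equal a Benjamini-Hochberg adjustment over all 18694 rows. Library totals are not given in this table, so the depth per library is unknown here. The summed mean counts came to 16292717, of which subfamilies held 10.6%. The study describes its RNA-seq replicates as separate clones or independent repeats, and the 4 libraries of a group span both clones.

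Computed here with Python 3.11.15, numpy 2.4.6, pandas 2.3.3 and scipy 1.17.1 were intervals, differences of pairs (errors added as independent), approximate group levels, and re-centred values with p recomputed from the deposited errors. Re-centring on genes was tested on simulated data with few changed features and a shift shared by all features. Re-centring on subfamilies was not tested in this way. Re-centring used the median of genes or of subfamilies outside ERV1 with a mean count of at least 100. Named subfamilies were those past the threshold, the 10 with the most reads, the pairs and those nearest the limit of 10. Pairs were matched by name, except MMVL30-int with the RLTR6 LTRs. Named host genes were those past the threshold and 8 set by name. Dnmt3a, Dnmt3b, Uhrf1 and Ythdc2 were named outside this rule. Other subfamilies named (MuLV-int, MuRRS-int, MERV1_LTR, and further LTRIS and RLTR1 subfamilies) were chosen after their values were seen. Members and lists were chosen with earlier results of these data known. Gene positions come from the RefSeq annotation of mm10. No subfamily sequence was printed.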

Additional observations from a re-analysis of the deposited data

How the results depend on the processing

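No paired analysis was possible because the table holds no value per library; leaving out each replicate could not be run for the same reason. Re-centring on genes left 11 ERV1 subfamilies lower, all among the 13, and turned RLTR14-int to 0.022 and RLTR14 to 0.020. Re-centring on subfamilies outside ERV1 left 5 lower (3 internal sequences, 2 LTRs) and 1 higher, moved the median of internal sequences to -0.040, and turned the medians of all members to 0.054 and of LTRs to 0.078. The same setting turned, on the log2 scale, RLTR14-int to 0.33, MLTR14 to 0.057, RLTR1B to 0.20, RLTR14_RN to 0.091, RLTR14 to 0.33, MMVL30-int to 0.054, MER34A1 to 0.066, MER31A to 0.23, MER92B to 0.12, LTR37A to 0.11, MER34-int to 0.048 and MER92-int to 0.28, none of which was past the threshold, and gave 23 host factors higher and 0 lower. These moves follow from the construction of the setting, which adds 0.36 to every value. The 5 that stayed lower were RLTR1B-int, LTRIS2, MuRRS4-int, RLTR4_MM-int (adjusted p = 0.0217) and RLTR4_Mm (adjusted p = 0.0484). A minimum change of 2-fold left 5 ERV1 subfamilies, 1 of them an LTR, and 3 host factors higher and 0 lower. At an adjusted p under 0.01, 10 host factors were lower. With an adjustment over features with a mean count of at least 10, 14 ERV1 subfamilies were lower, and at an adjusted p under 0.1, 17. The depth per library is unknown, and members with few reads had the wider errors.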
